A study of Mus musculus with 48 samples.

Results

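Ribosome-bound RNA of D1 neurons from mice in fentanyl abstinence was compared with that of mice in the water groups, in 24 of the 48 libraries of the series: all 12 labelled as Drd1 neurons with fentanyl abstinence and all 12 labelled as Drd1 neurons with water abstinence. The libraries were chosen by label alone, and each treatment held 6 libraries from males and 6 from females. All animals carried Drd1Cre and Rpl22HA, a Cre-dependent copy of the ribosomal protein gene Rpl22 that bears a haemagglutinin (HA) tag, so the controls shared both alleles and differed from the fentanyl groups in the drug. The nucleus accumbens was taken on day 10 of abstinence, as 4 punches of 14 gauge per mouse, and 4 mice were pooled per library, so that the tests compare pools and say nothing of single animals. An antibody to the tag recovered the polyribosomes, and 10 ng of the RNA went into each Smart-Seq v4 library. Drd1Cre marks every cell in which the Drd1 promoter has been active, and the pull-down also carries over some RNA of other cells. The title of the series names negative affective behaviours in fentanyl abstinence as its subject.

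The nucleus accumbens belongs to the ventral striatum, serves reward and motivated behaviour, and its principal cells are GABAergic medium spiny neurons. Those with the dopamine D1 receptor, which raises cyclic AMP, also make dynorphin (Pdyn) and substance P (Tac1), whereas those with the dopamine D2 receptor make enkephalin (Penk). Fentanyl is an agonist of the mu opioid receptor, which couples to inhibitory G proteins, lowers cyclic AMP and opens potassium channels. Repeated opioid exposure followed by withdrawal is known to leave lasting changes in the excitability and dendrites of medium spiny neurons.

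No gene differed between fentanyl abstinence and water at an adjusted p under 0.05 (edgeR's quasi-likelihood test, Benjamini-Hochberg over 16782 genes), which is 0 genes and 0% of those tested over both sexes, in males, in females and for the difference between the sexes. The smallest adjusted p was 0.916 over both sexes, 0.161 in males, 0.807 in females and 0.375 for the difference between the sexes. Unadjusted p-values under 0.05 went to 621 genes over both sexes, 3.7% of those tested, of which 305 (1.82%) were higher and 316 (1.88%) lower in fentanyl. In males 464 genes (2.76%) had such a p-value, 1.39% of all genes higher and 1.37% lower, and in females 964 genes (5.74%), 2.97% higher and 2.78% lower. For the difference between the sexes it was 674 genes (4.02%), 2.14% above 0 and 1.88% below. Evenly spread p-values would give 839 in each comparison. DESeq2 called 2 genes over both sexes, 4 in males, 0 in females and 4 for the difference, and limma voom with quality weights called 0, 2, 0 and 0. The DESeq2 calls, named here after they were seen, were Gm28437 and Gm13340 over both sexes, Gm28437, Psmd10, Rcor3 and Syne2 in males, and Depdc5, Zbtb34, Gm6030 and Ndufb4c between the sexes. In the main edgeR fit no gene of any list named below passed the adjusted threshold for fentanyl against water. The differences between treatments that follow are thus estimates with their errors, and none is a change called by that fit. The same fit called 9 genes between females and males, 0.0536% of those tested, 0.0179% higher and 0.0358% lower in females, and 1278 (7.62%; 3.61% higher, 4% lower) had an unadjusted p under 0.05. Among the 9 were the Y-linked Eif2s3y, lower in females by a log2 difference of -7.38, and the X-linked Eif2s3x, higher by 0.61. Unless another value is given, the adjusted p of a gene named below is 1.00 over both sexes and in males, at least 0.807 in females and at least 0.993 between the sexes, and its error is the standard error (SE) of the fit.

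The estimates were narrow for abundant genes. The median gene had a 95% interval of 0.187 log2 units to each side over both sexes and 0.267 in each sex. For 60.4% of genes the interval lay within 0.32 log2 units of 0 either way, for 81.7% within 0.58 and for 95.6% within 1.00; many of the estimates below are smaller than the first of these limits. Levels are given in CPM, read counts divided by the TMM-scaled library size. The median interval reached 0.133 log2 units to each side for genes between 10 and 100 CPM, 0.112 above 100 CPM and 0.548 under 1 CPM.

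The libraries held 20211543 to 31779013 reads in genes (mean 27153238 ± 2712615, SD, n = 24), at 27873552 ± 2228281 with fentanyl and 26674520 ± 3114958 with water in males (SD, n = 6 each, exact permutation test, two-sided, p = 0.478) and with a p of 0.639 by the same test in females. The share of reads outside exons was lower with fentanyl in males, at 11.9 ± 0.724% against 12.9 ± 0.510% (SD, n = 6 each, exact permutation test, two-sided, p = 0.0173). In females it was 12.9 ± 1.07% against 14.6 ± 1.88% (SD, n = 6 each, the same exact test, p = 0.0866). A set of 6 libraries stood apart from the rest: male fentanyl replicate 1, male water replicates 2 and 3, female fentanyl replicates 4 and 5, and female water replicate 6. Their median correlation with the other libraries was 0.982 to 0.990, against 0.992 to 0.994 in the other 18. In these 6 Adora2a, a marker of D2 neurons, ran from 22.9 to 51.7 CPM against 75.4 to 178 CPM in the other 18. The summed CPM of the D2 markers overlapped, at 1482 to 2851 against 1856 to 3899. The summed CPM of 60 ribosomal protein genes ran from 8261 to 10810 against 6866 to 8117. Drd1 did not separate them, at 413 to 521 CPM against 389 to 593 CPM. Without these 6 libraries the counts of called genes were again 0 over both sexes, in males, in females and for the difference, with 862, 934, 930 and 982 unadjusted p-values under 0.05.

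The defining transcripts of D1 neurons were present in every library, beside RNA of D2 neurons. Drd1, the dopamine D1 receptor, had a lowest, median and highest level of 389, 443 and 497 CPM in male fentanyl, 413, 434 and 593 CPM in male water, 436, 463 and 565 CPM in female fentanyl and 440, 487 and 582 CPM in female water. All 4 ranges overlapped, and the log2 difference over both sexes was -0.05 (95% interval -0.18 to 0.07). Tac1 ran from 1483 to 2129 CPM over all libraries, with a difference of -0.02 (-0.14 to 0.10). Pdyn, the dynorphin precursor, differed by 0.04 (-0.15 to 0.22), and Isl1, a transcription factor of the striatonigral lineage, by 0.04 (-0.10 to 0.17). The summed D1 markers ran from 2911 to 4122 CPM and the summed D2 markers from 1482 to 3899 CPM, which are sums over different genes and not per length. The D2 markers included Penk at 1315 to 3466 CPM and Drd2, the D2 receptor, at 20.4 to 84.4 CPM in the 24 libraries. The median log2 difference of 6 D2 markers was 0.08. It was between 0.0090 and 0.15 in the fits without 1 library and between -0.02 and 0.13 across the remaining settings. The endogenous and tagged Rpl22 cannot be told apart in these counts, which differed by -0.15 (SE 0.0813). In libraries of pooled tissue, fewer cells of a type and less RNA per cell cannot be told apart, and this holds for every marker below.

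**Figure D1:**
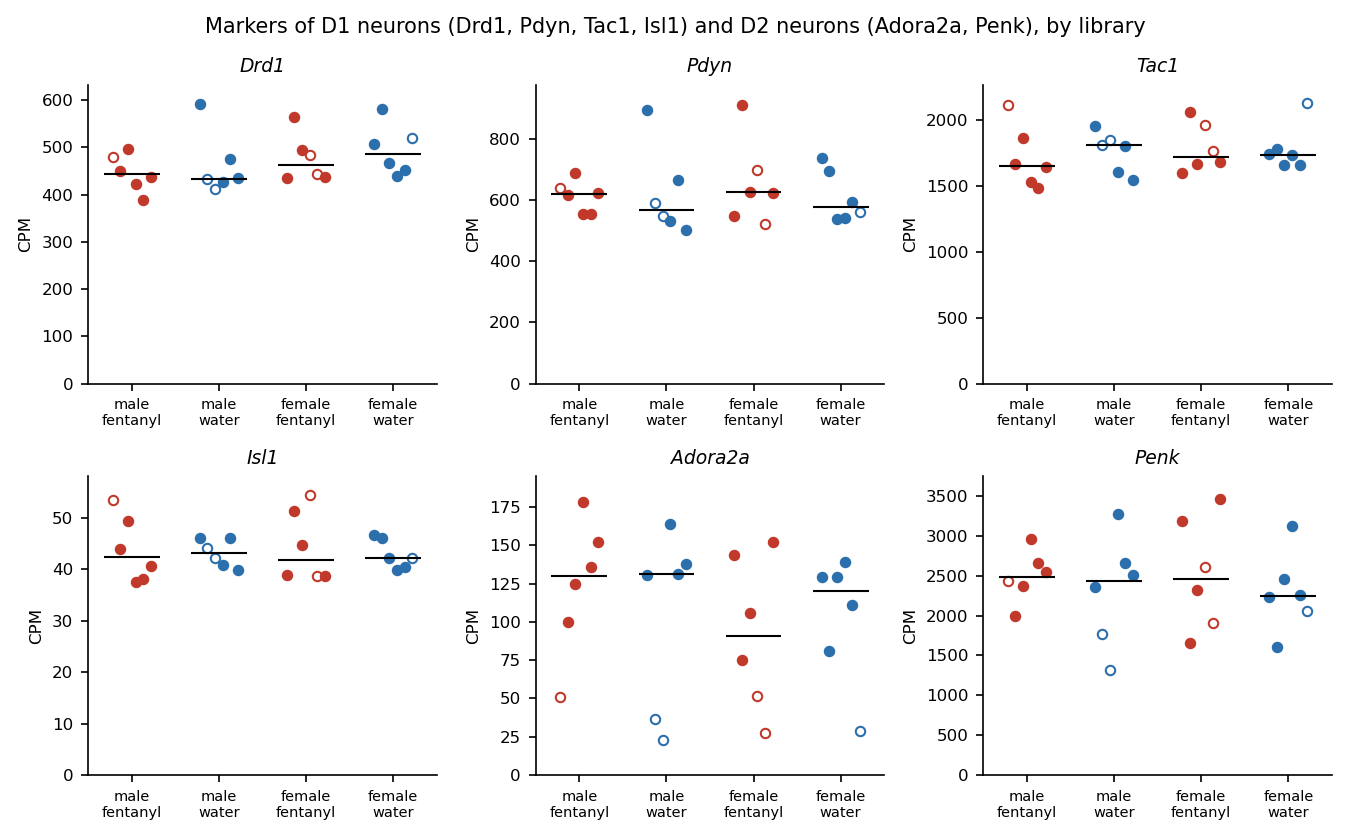
Levels in CPM (linear axis) of the D1 markers Drd1, Pdyn, Tac1 and Isl1 and the D2 markers Adora2a and Penk in each of the 24 D1 libraries, by sex and treatment; bars are group medians and open circles are the 6 libraries that stood apart. The D1 markers overlapped between fentanyl and water in both sexes, and Adora2a was at 22.9 to 51.7 CPM in the 6 open libraries. The summed D2 markers of these 6 overlapped those of the other libraries.

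Summed markers of other cells overlapped between treatments. GABA interneuron genes summed to 709 to 1201 CPM in fentanyl and 660 to 1267 CPM in water, and genes of excitatory pallial neurons to 383 to 782 and 441 to 889 CPM. The sum over 10 microglial genes ran from 11.96 to 17.3 CPM in fentanyl and 12.4 to 24.4 CPM in water. For 12 vascular genes, of which 9 were tested, it ran from 24.2 to 36.0 and 21.04 to 39.1 CPM. For 7 cholinergic genes it ran from 12.3 to 29.2 and 11.5 to 34.6 CPM. Astrocyte genes summed to 248 to 502 CPM in fentanyl and 254 to 482 CPM in water, oligodendrocyte genes to 302 to 468 and 304 to 428 CPM. None of the defining markers tested was at 0 in any of the 24 libraries. Among the astrocyte genes, Slc1a3, a glutamate transporter, had the smallest p: its lowest, median and highest levels were 12.1, 14.5 and 15.7 CPM in male fentanyl and 14.8, 17.6 and 25.6 CPM in male water, with a log2 difference over both sexes of -0.33 (SE 0.0952, adjusted p = 1.00). It was -0.28 without the 6 libraries and -0.18 with the share of reads outside exons as a covariate. Of the haemoglobin genes, Hbb-bs, whose counts are uncertain because other genes hold 53.2% of its stretches of 50 bases, differed by -0.51 (SE 0.180) and by -0.30 without the 6 libraries. Oligodendrocyte genes lay apart between the sexes, with all 12 above 0 in females (median 0.24) and 11 of 12 below 0 in males (median -0.08), against 51% and 47.9% of all genes below 0. The part of these markers in the results below was not tested beyond the fits that carry them as covariates.

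The genes with the smallest p-values over both sexes separated most libraries, but by small amounts. The group is described here by its values, since the ranking itself chose it. Rprm, the p53 target reprimo on chromosome 2 (GRCm38 54084093 to 54085552), had a lowest, median and highest level of 31.0, 33.8 and 40.9 CPM in male fentanyl against 33.7, 40.0 and 57.1 CPM in male water, and 23.8, 33.3 and 37.7 CPM in female fentanyl against 33.9, 46.0 and 49.6 CPM in female water. All 12 fentanyl libraries lay below the median of the water libraries, and the ranges overlapped in both sexes. The log2 difference was -0.36 (SE 0.0872, adjusted p = 1.00).

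Kcnj11 encodes Kir6.2, the pore-forming subunit of ATP-sensitive potassium channels, which couple the energy state of a cell to its excitability (chromosome 7, 46093953 to 46100764). In females its levels were 21.2, 21.9 and 23.9 CPM with fentanyl and 24.2, 25.8 and 26.6 CPM with water, with no overlap. In males they were 18.9, 21.1 and 22.9 CPM against 19.8, 23.5 and 25.5 CPM, which overlapped, and all 12 fentanyl libraries lay below the median of the water libraries. The difference was -0.18 (SE 0.0450) over both sexes, -0.15 with the share of reads outside exons as a covariate and -0.18 without the 6 libraries. Abcc8, the sulphonylurea receptor that completes the same channel, differed by -0.00 (95% interval -0.14 to 0.13).

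Others with lower estimates were Hipk4, a protein kinase gene, at -0.19 (SE 0.0535, 11 of 12 fentanyl libraries below the water median), Mir124-2hg, a host transcript of the neuronal microRNA miR-124, at -0.23 (SE 0.0638, 10 of 12), and Atf5, a transcription factor of the stress response, at -0.40 (SE 0.134, 11 of 12). Higher estimates went to Smg8, a subunit of the kinase complex of nonsense-mediated decay, at 0.27 (SE 0.0703, 10 of 12 above the water median), Tpx2, a spindle assembly factor, at 0.39 (SE 0.111, 12 of 12), Recql, a DNA helicase, at 0.25 (SE 0.0712, 12 of 12) and Xrcc6, which encodes the Ku70 protein of DNA end joining, at 0.18 (SE 0.0567, 11 of 12). All of these had an adjusted p of 1.00. With the share of reads outside exons as a covariate Atf5 was at -0.22, Recql at 0.14 and Xrcc6 at 0.089, and without the 6 libraries Atf5 was at -0.25. Hnrnpu, an RNA-binding protein of the nuclear matrix, had the largest estimate among the 10 higher genes, 1.71, and it rested on single libraries: male fentanyl replicate 5 held 21.9 CPM and female fentanyl replicate 4 held 30.7 CPM, while the medians of the 4 groups were 1.79 to 2.62 CPM. Without the 6 libraries, which include the second of these, its female difference was 0.16 against 2.00 with all of them, and that over both sexes 0.93.

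In males the lowest p-value belonged to Rcor3, a corepressor of the CoREST family that binds the REST silencing complex (chromosome 1, 192098546 to 192138062). The male fentanyl libraries ran from 5.93 through a median of 6.95 to 9.52 CPM and the male water libraries from 11.6 through 13.4 to 14.0 CPM. The 6 fentanyl libraries thus lay below all 6 water libraries, as for 13 genes in males (0.0775% of those tested), while for 6 genes (0.0358%) they lay above, 0.113% in all. The male difference was -0.87 (SE 0.158, adjusted p = 0.161). The count of calls turned on it: limma voom called Rcor3 and Syne2 (adjusted p = 0.0161 and 0.0259), and edgeR called Rcor3 without male fentanyl replicate 6 (adjusted p = 0.0457) or without female fentanyl replicate 2 (adjusted p = 0.0203).

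In females Rcor3 ran from 6.35 to 13.3 CPM with fentanyl and from 7.45 to 12.6 CPM with water, a wide overlap with low libraries in both groups, and the difference was -0.02 (SE 0.156). The difference between the sexes was 0.86 (SE 0.222, adjusted p = 0.993). Without the 6 libraries the male value was -0.92, the female value -0.28 and the difference between the sexes 0.64. Among its relatives, Rcor1 differed by -0.04 over both sexes and Rcor2 by 0.42 in males and -0.39 in females, while Rest, the transcription factor that recruits CoREST, differed by 0.33 over both sexes (SE 0.137) at a median of 2.03 CPM with fentanyl and 1.67 CPM with water. Among the chromatin genes, Rcor3 and Rest were of those with an unadjusted p under 0.05 over both sexes.

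Syne2 encodes nesprin-2, which links the nuclear envelope to the cytoskeleton (chromosome 12, 75818134 to 76110926). Male fentanyl libraries lay at 11.6, 12.5 and 13.6 CPM and male water libraries at 7.83, 8.70 and 10.4 CPM, with no overlap, for a difference of 0.49 (SE 0.102, adjusted p = 0.386). In females the ranges were 8.21 to 11.2 and 7.72 to 12.9 CPM, with a difference of 0.02. Zfp438, a zinc finger gene, differed by 0.65 in males (SE 0.143, adjusted p = 0.492) and by 0.01 in females. Atp6v0c, the proteolipid subunit of the vacuolar proton pump, was at 880, 1309 and 1775 CPM in male fentanyl against 1678, 1944 and 2022 CPM in male water, a difference of -0.56 (SE 0.174).

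In females 48 genes (0.286%) had ranges that did not overlap, 27 (0.161%) with fentanyl above water and 21 (0.125%) below, and no gene did so in both sexes. The names of those outside the rule for named genes (Psmb6, Ndufb2, Ndufv2, Gabarapl2, Syt7, Prkce and Lrp6) were chosen after their values were seen. Those above included Psmb6, a catalytic subunit of the proteasome, at 0.14 (adjusted p = 0.807), Ndufb2 and Ndufv2, subunits of respiratory complex I, at 0.16 and 0.11, Coq4 of ubiquinone synthesis at 0.21, Sdhaf2, an assembly factor of respiratory complex II, at 0.18, and Gabarapl2 of autophagosome formation at 0.11. The female value of Coq4 was 0.18 without the 6 libraries, a fit for which the other values are not given here. Those below included Syt7, a calcium sensor of vesicle release, at -0.31 (adjusted p = 0.807), Prkce, protein kinase C epsilon, at -0.30 (adjusted p = 0.807), and Lrp6, a Wnt coreceptor, at -0.20 (adjusted p = 0.807). How many genes would separate by chance in either sex, with 6 libraries in each group, was not tested.

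Shank2, a scaffold of the postsynaptic density (chromosome 7, 144001928 to 144424494), was at 45.3, 54.7 and 61.3 CPM in female fentanyl and 64.3, 67.5 and 73.6 CPM in female water, with no overlap. In males its ranges were 43.0 to 67.3 and 48.9 to 67.6 CPM. The difference was -0.35 in females (SE 0.0979, adjusted p = 0.807) and -0.06 in males, and the sexes differed by -0.29 (SE 0.138, adjusted p = 0.993). Without the 6 libraries the female value was -0.27 and the difference between the sexes -0.17, and with the share of reads outside exons as a covariate -0.33.

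Depdc5, a subunit of the GATOR1 complex that restrains the growth kinase mTORC1 (chromosome 5, 32863701 to 32994236), had the smallest p for the difference between the sexes. In females its levels were 25.7, 26.4 and 27.7 CPM with fentanyl and 28.7, 31.3 and 33.1 CPM with water, with no overlap, and in males 26.6, 30.2 and 34.1 CPM against 24.5, 26.3 and 27.3 CPM. The difference was -0.23 in females (SE 0.0595) and 0.20 in males (SE 0.0596), and the sexes differed by -0.43 (SE 0.0842, adjusted p = 0.375). DESeq2 called that difference (adjusted p = 0.00843), and it was -0.41 without the 6 libraries. Zbtb34, a zinc finger gene, had the same signs, at 0.37 in males and -0.28 in females (adjusted p = 0.419 between the sexes), and so had Tmtc2, a protein of the endoplasmic reticulum, at 0.32 and -0.50. Mtch2, a protein of the outer mitochondrial membrane, went the other way, at -0.22 in males and 0.23 in females (adjusted p = 0.860 between the sexes), and Pdcd2l, of ribosomal protein assembly, at -0.14 and 0.13. The female values were -0.14 for Zbtb34 and 0.14 for Mtch2 without the 6 libraries.

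**Figure D2:**
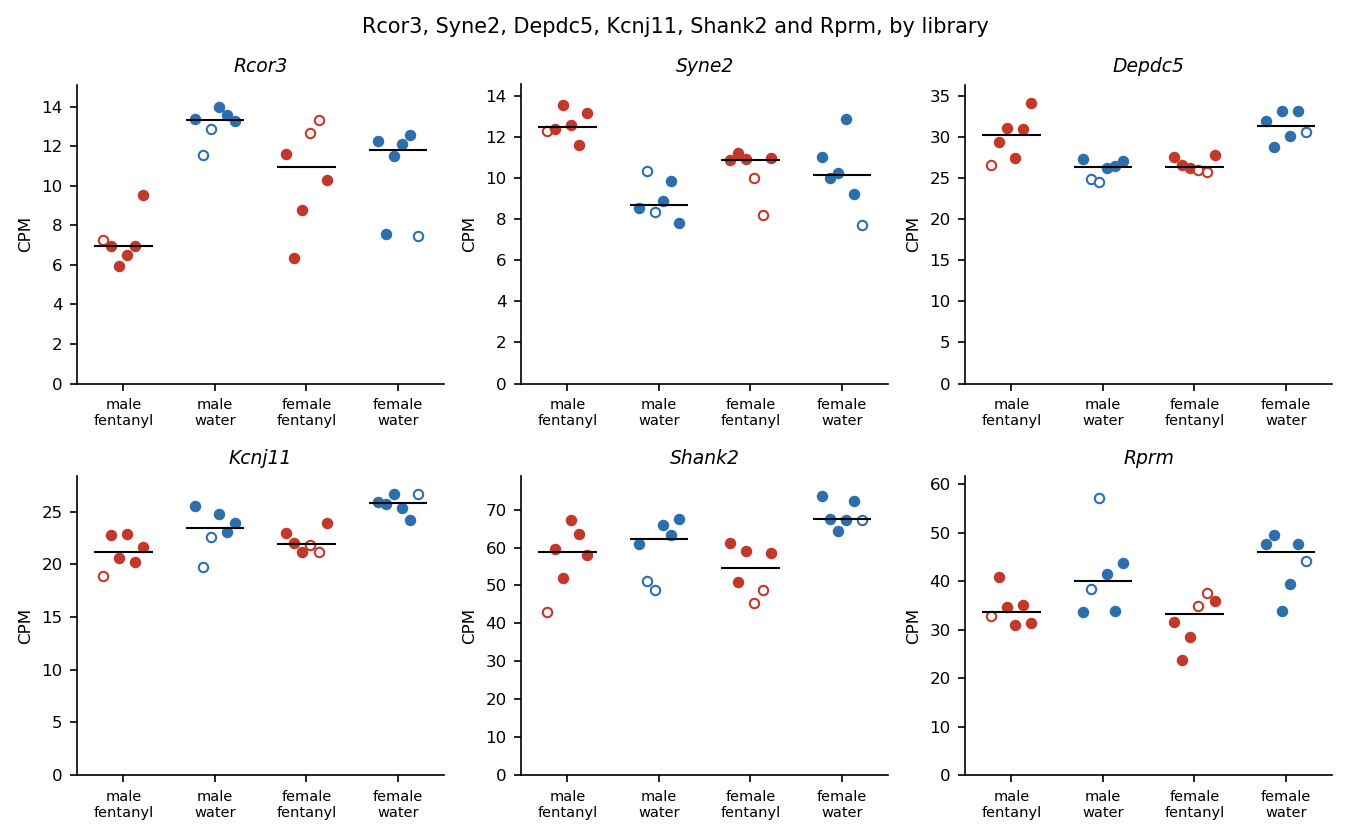
Levels in CPM (linear axis from 0) of Rcor3, Syne2, Depdc5, Kcnj11, Shank2 and Rprm in each D1 library, by sex and treatment; bars are group medians and open circles the 6 libraries that stood apart. Rcor3 and Syne2 did not overlap between treatments in males, Depdc5, Kcnj11 and Shank2 did not overlap in females, and Rprm overlapped in both sexes.

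Across all 16782 genes the differences of males and females had a Pearson correlation of 0.0293 and a Spearman correlation of -0.0045, and 49.3% of genes had the same sign in both sexes. Genes are not independent replicates, so the value is given as a description. An unadjusted p under 0.05 in both sexes was found for 39 of the 16782 genes, out of 464 in males and 964 in females. The size of this overlap was not tested. Of the 39, 20 had the same sign, among them Rprm, Kcnj11, Smg8, Tpx2 and Hipk4. The other 19 had the opposite sign, among them Depdc5, Zbtb34, Mtch2 and Pdcd2l.

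**Figure D3:**
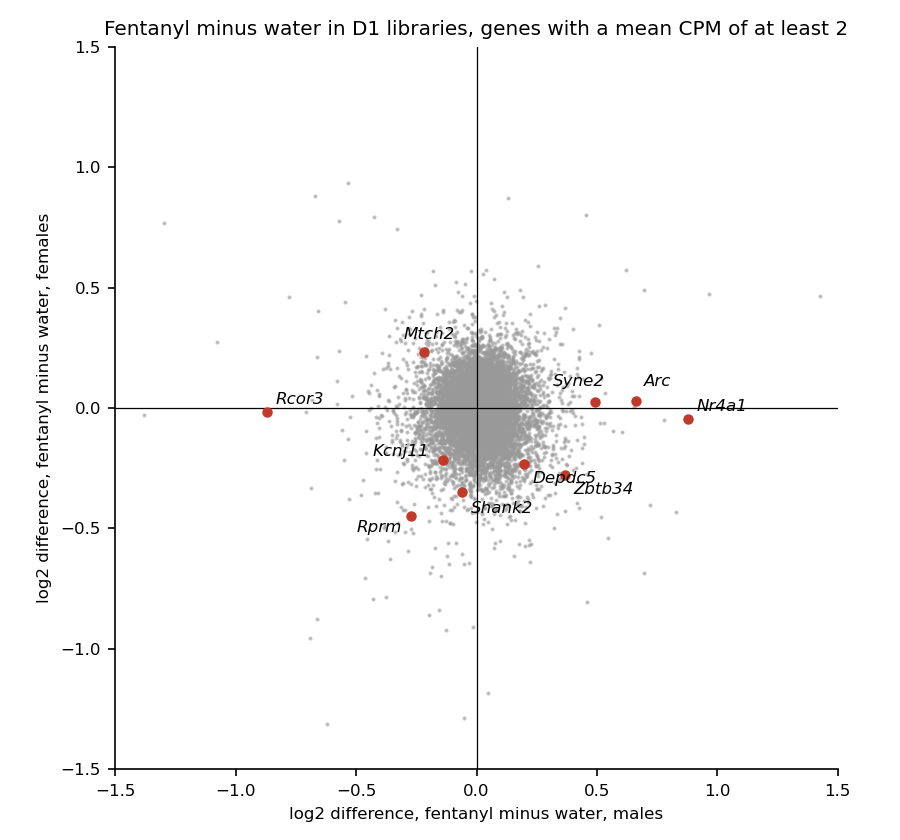
Log2 difference of fentanyl minus water in males (x axis) and females (y axis) for 12206 genes with a mean CPM of at least 2, with 26 more beyond the axes at 1.5; red points are genes named in the text. Rcor3, Syne2, Nr4a1 and Arc lie along the male axis near 0 in females, and Rprm and Kcnj11 lie below 0 in both sexes.

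Immediate early genes are switched on within minutes to hours by synaptic activity, calcium and cyclic AMP, partly through the factor CREB. Of 17 tested, 14 lay above 0 in males (median 0.20), where 47.9% of all genes lay below 0 and the median gene was at 0.01. In females 9 of the 17 lay below 0 (median -0.04). The mean of log2 (CPM + 1) over the 17 ran from 4.562 to 5.205 in male fentanyl libraries and from 4.591 to 5.023 in male water. These ranges overlapped, and male fentanyl replicate 3 was the lowest of the male libraries. Genes of the list are not independent of each other, so the counts that follow are a description. An unadjusted p under 0.05 in males was found for 5 of the 17, all higher in fentanyl, against 1.39% of all genes that were higher with such a p-value, and their adjusted p was 1.00. The 250 bases upstream of the RefSeq start of 4 of these genes are printed here, since the genes share a known route of activation; the capitals mark the core TGACG of the cyclic AMP response element, or CGTCA on the other strand, as found by a search of both strands, and matches can be part of other motifs. The sequences are from RefSeq on GRCm38.p6, each 5′ to 3′ on the strand of the gene.
Nr4a1, chr15:101266596-101266845, plus strand: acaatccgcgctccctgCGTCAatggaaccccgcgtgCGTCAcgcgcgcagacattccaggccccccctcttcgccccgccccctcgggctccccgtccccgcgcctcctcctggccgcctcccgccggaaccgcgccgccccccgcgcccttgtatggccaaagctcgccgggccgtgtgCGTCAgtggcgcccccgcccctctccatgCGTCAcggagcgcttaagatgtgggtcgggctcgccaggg
Fos, chr12:85473640-85473889, plus strand: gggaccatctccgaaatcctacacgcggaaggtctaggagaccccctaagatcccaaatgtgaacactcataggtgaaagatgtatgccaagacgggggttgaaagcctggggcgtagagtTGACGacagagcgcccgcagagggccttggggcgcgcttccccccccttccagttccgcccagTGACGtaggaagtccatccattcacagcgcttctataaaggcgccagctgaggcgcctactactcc
Junb, chr8:84978749-84978998, minus strand: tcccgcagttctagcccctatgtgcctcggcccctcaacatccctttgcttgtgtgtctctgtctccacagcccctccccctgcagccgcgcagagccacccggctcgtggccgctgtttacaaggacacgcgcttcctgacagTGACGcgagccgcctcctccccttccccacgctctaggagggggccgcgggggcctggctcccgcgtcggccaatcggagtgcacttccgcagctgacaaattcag
Fosl2, chr5:32136222-32136471, plus strand: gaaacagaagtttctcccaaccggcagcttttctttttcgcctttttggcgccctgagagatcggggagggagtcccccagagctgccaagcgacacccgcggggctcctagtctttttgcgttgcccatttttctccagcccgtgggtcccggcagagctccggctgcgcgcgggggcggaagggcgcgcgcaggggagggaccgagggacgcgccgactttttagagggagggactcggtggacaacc
The core was found 4 times upstream of Nr4a1, 2 times upstream of Fos, 1 time upstream of Junb and 0 times upstream of Fosl2, whose lack of these letters says nothing of the factor. Of 32851 mouse promoters of the same length in RefSeq, 17.8% held the core and 0.137% held it 4 or more times. The 14 immediate early genes in that set had 24 promoters, of which 13 (54.2%) held it.

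Nr4a1, an orphan nuclear receptor (chromosome 15), had the largest male difference of the list. Its levels were 54.5, 89.7 and 147 CPM in male fentanyl, 32.7, 51.5 and 66.5 CPM in male water, 30.4, 81.9 and 130 CPM in female fentanyl and 39.0, 92.0 and 114 CPM in female water. Male water was the lowest of the 4 groups by median, and the male ranges overlapped. The difference was 0.88 in males (SE 0.303), -0.05 in females and -0.92 between the sexes (SE 0.426, adjusted p = 0.993).

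Arc, a cytoskeletal protein of activated synapses, was at 37.7, 59.9 and 80.4 CPM in male fentanyl, 31.7, 37.1 and 47.2 CPM in male water, 31.8, 58.3 and 79.7 CPM in female fentanyl and 32.3, 61.0 and 71.9 CPM in female water. As for Nr4a1, male water had the lowest median and the female groups had like medians. The male difference was 0.66 (SE 0.214) and the female difference 0.03.

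Fos, a subunit of the AP-1 transcription factor, differed by 0.57 in males (SE 0.233) and -0.10 in females, Junb, its partner, by 0.36 (SE 0.1505) and 0.08, and Fosl2, another AP-1 subunit, by 0.35 (SE 0.133) and -0.04. Fosb, whose stable splice form is known to build up in D1 neurons after repeated drug exposure, differed by 0.18 in males and -0.37 in females (SE 0.172), the latter -0.22 without the 6 libraries. Egr1, an activity-induced zinc finger factor, differed by 0.17 and 0.01, and Bdnf, a neurotrophin, by -0.16 and 0.02. Without the 6 libraries both signs of Bdnf changed, to 0.39 in males and -0.19 in females. With the share of reads outside exons as a covariate Bdnf was at -0.063 and 0.15. The difference between the sexes had an unadjusted p under 0.05 for 4 of the 17, Fosb, Fosl2, Arc and Nr4a1, all below 0, where 1.88% of all genes were below 0 with such a p-value. Without the 6 libraries the male values were 0.77 for Nr4a1, 0.61 for Arc and 0.74 for Fos, and with the share of reads outside exons as a covariate they were 0.84, 0.63 and 0.48.

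**Figure D4:**
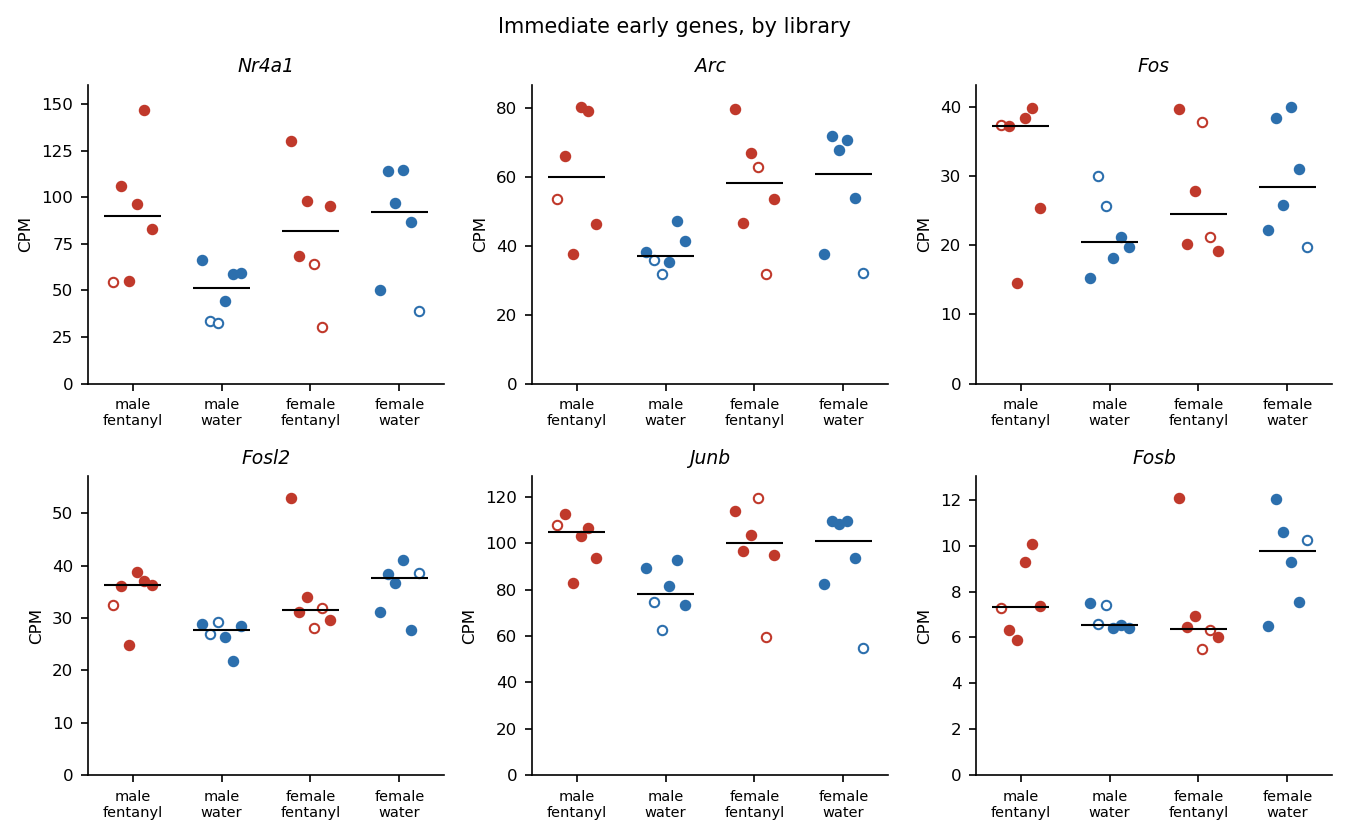
Levels in CPM (linear axis from 0) of Nr4a1, Arc, Fos, Fosl2, Junb and Fosb in each D1 library, by sex and treatment; bars are group medians and open circles the 6 libraries that stood apart. For Nr4a1 and Arc the male water libraries have the lowest median, 51.5 and 37.1 CPM, and the ranges overlap.

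The opioid genes showed no called difference. All 8 had a positive estimate over both sexes (median 0.10, against 50.3% of all genes below 0), 5 of 8 in males (median 0.01) and 7 of 8 in females (median 0.15), and none had an unadjusted p under 0.05 over both sexes, the smallest being 0.218. Oprm1, the mu receptor on which fentanyl acts, was at 2.97, 4.49 and 5.82 CPM with fentanyl and 2.68, 4.23 and 5.82 CPM with water, a difference of 0.11 (95% interval -0.15 to 0.38). Oprk1, the kappa receptor of dynorphin, was at 55.4, 67.4 and 85.9 CPM and 53.2, 62.7 and 82.6 CPM, a difference of 0.09 (-0.06 to 0.23). Both pairs of ranges overlapped almost fully. The delta receptor gene Oprd1 differed by 0.06, the nociceptin receptor gene Oprl1 by 0.05, and the peptide genes Penk by 0.12, Pdyn by 0.04, Pnoc by 0.17 and Pomc by 0.15. In the dopamine and cyclic AMP pathway the median of 26 genes was 0.00, with 12 below 0. Ppp1r1b, the phosphatase inhibitor DARPP-32, differed by -0.01 (-0.16 to 0.15), Drd3, the dopamine D3 receptor, by 0.34 (SE 0.176) and Cdk5r1, the activator of the kinase Cdk5, by -0.12 (SE 0.0551). With the share of reads outside exons as a covariate Drd3 was at 0.033 and Cdk5r1 at -0.0034.

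Most channel and spine genes had estimates below 0 over both sexes. Of all genes 50.3% did so over both sexes, 47.9% in males and 51% in females. Of 34 potassium channel genes 28 lay below 0 over both sexes (median -0.04), 17 in males and 27 in females (median -0.09). Kcnj11 and Kcna2 were among those with an unadjusted p under 0.05, both with lower estimates in fentanyl, and 1.88% of all genes were lower with such a p-value. Kcna2, a voltage-gated channel of the axon, was at 143, 159 and 194 CPM in female fentanyl and 178, 182 and 229 CPM in female water, with an overlap at the top of the fentanyl range, and differed by -0.21 in females and -0.11 in males, which were -0.081 and -0.030 with the share of reads outside exons as a covariate. Of 26 sodium, calcium and HCN channel genes 21 lay below 0 over both sexes, 23 in females (median -0.12) and 14 in males, and Cacna1a, the pore of the P/Q-type calcium channel, differed by -0.11 (SE 0.0440), or by -0.063 with that covariate.

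Of 44 genes of dendrites, spines and actin 30 lay below 0 over both sexes, and 3, Shank2, Ppp1r9a and Trio, had an unadjusted p under 0.05 and were lower, against 1.88% of all genes. Ppp1r9a, the actin-binding spine protein neurabin, differed by -0.15 (SE 0.0561), as did Trio, an exchange factor for small GTPases (SE 0.0682). Nlgn2, the adhesion protein of inhibitory synapses, differed by -0.19 (SE 0.0710). With the share of reads outside exons as a covariate Ppp1r9a was at -0.086, Trio at -0.011 and Nlgn2 at -0.036. In females 6 of the 44 had an unadjusted p under 0.05 and were lower, against 2.78% of all genes, and in males 0, against 1.37%. The difference between the sexes itself had an unadjusted p under 0.05 for 0 of the 34 potassium channel genes, 1 of the 26 sodium, calcium and HCN channel genes and 2 of the 44, against 4.02% of all genes. Estimates also varied with exon length in females: over protein-coding genes with a mean CPM of at least 2, the median difference was 0.04 in the lowest of 5 bins of exon length and -0.05 in the highest, and in males -0.03 and 0.01. Without the 6 libraries the medians of these bins were 0.01 and -0.03 in females and -0.02 and 0.02 in males. With the share of reads outside exons as a covariate they were 0.03 and 0.01 in females and -0.03 and 0.05 in males. In that fit the female medians of the bins between were -0.03, -0.03 and -0.02. That covariate also moved the medians of the potassium channel list to -0.02 and of the sodium, calcium and HCN list to 0.01. The part of exon length and of reads outside exons in these lists was not tested further.

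Ribosomal protein genes lay below 0 in males. Of 60, 58 lay below 0 in males (median -0.10) and 28 in females (median 0.00), against 47.9% and 51% of all genes. Rpl14 had the smallest p of the list over both sexes, at -0.12 (SE 0.0632). The male groups held 3 of the 6 libraries with high ribosomal sums, 1 with fentanyl and 2 with water. Without the 6 the median over both sexes was -0.02 in place of -0.05, and with the share of reads outside exons as a covariate it was 0.06. The median in males alone is not given here for these fits. Of 43 nuclear-encoded genes of the respiratory chain 38 lay below 0 in males and 15 in females, against the same shares of all genes. The summed CPM of this list also separated the 6 libraries, at 19200 to 20680 against 17130 to 18220 in the other 18. Without the 6 its median over both sexes was -0.0099 in place of -0.015, and the medians in each sex are not given for that fit. The part of the 6 libraries in these signs was not tested. Of 27 heat shock and unfolded protein genes 7 lay below 0 over both sexes, against 50.3% of all genes. Hspa5, the chaperone BiP, differed by 0.15 (SE 0.0616) and by 0.052 with the share of reads outside exons as a covariate. Atf4, a factor of the integrated stress response, differed by -0.18 (SE 0.0681), by -0.10 with that covariate and by -0.086 without the 6 libraries. Among stress genes Crh, the corticotropin-releasing hormone, differed by -0.39 (SE 0.138), with levels of 4.99 to 11.0 CPM in fentanyl and 7.05 to 15.7 CPM in water that overlapped, and by -0.44 without the 6 libraries. Neat1, a nuclear noncoding RNA, differed by -0.33 (SE 0.119) and Malat1, another, by 0.00.

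**Figure D5:**
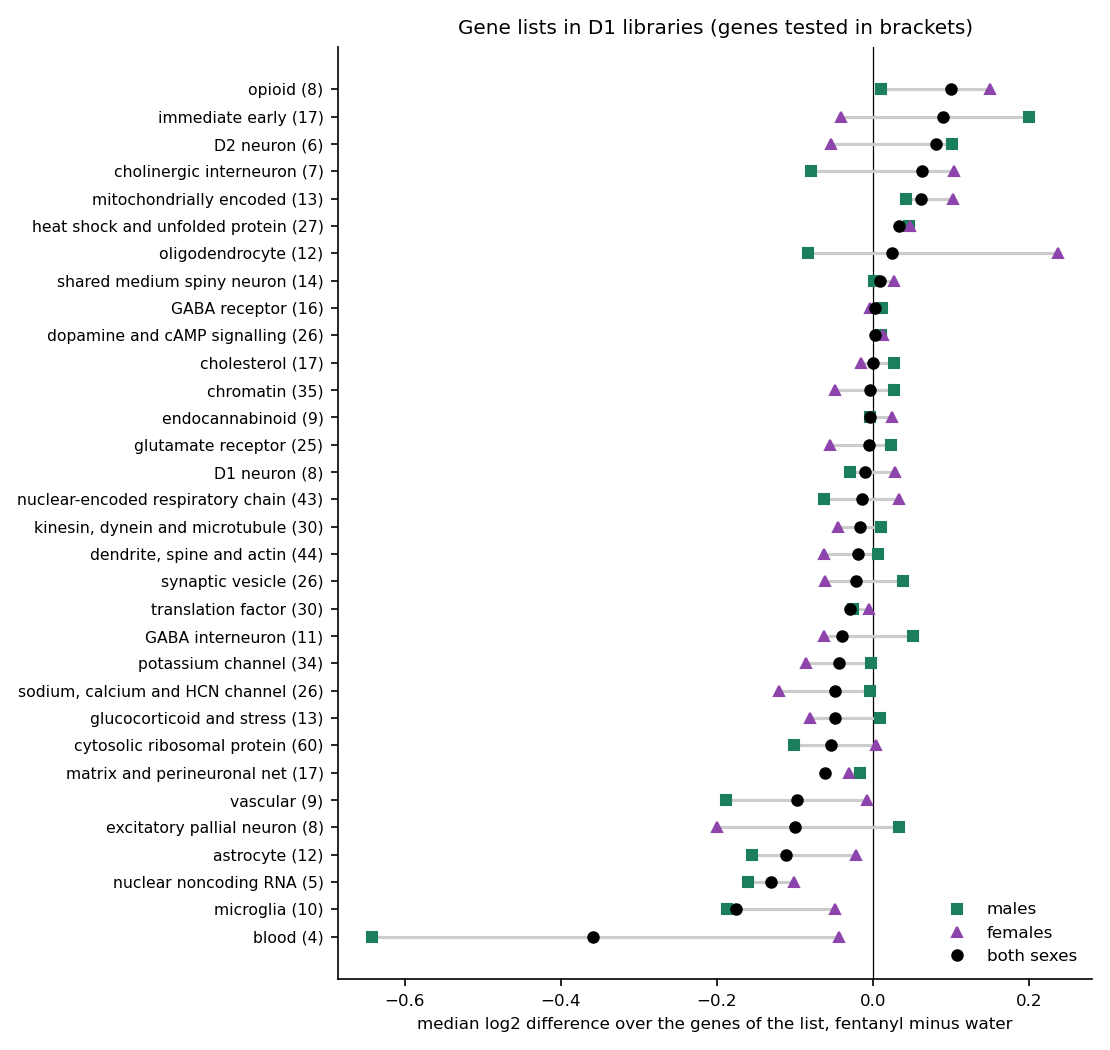
Median log2 difference of fentanyl minus water over the tested genes of 32 lists, in males (squares), females (triangles) and both sexes (circles); the number of genes tested stands in brackets. Most medians lay within 0.1 of 0, and the oligodendrocyte, immediate early and blood lists had the widest gaps between the sexes.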

How the data were processed

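The authors deposited raw read counts over exons, without any scaling, for 54838 Ensembl genes, with 5 summary lines in each library. The submitters' processing notes name TopHat2 2.0.8, HTSeq and the GRCm38 build, but the HTSeq version, strand setting and annotation are not given in the sources used here. The summary lines made up 26.3 ± 1.97% of all reads (SD over 24 libraries) and entered no total. Genes with near-identical copies lose or share reads, and overlapping genes on either strand can mix. GENCODE M21 on GRCm38 gave coordinates, and symbols for 54809 identifiers, with 29 unmatched. Promoters came from RefSeq on GRCm38.p6.

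The 24 D1 libraries were fitted together with edgeR 4.0.16 in R 4.3.3 (TMM scaling, filterByExpr with a count minimum of 10 and a total minimum of 15, quasi-likelihood test, Benjamini-Hochberg at 0.05, two-sided). Fentanyl was compared with water over both sexes with sex as an additive term, and in each sex and between the sexes with 4 group means. A fold or log2 difference is fentanyl minus water, or female minus male for the sexes, and intervals are 95% t intervals on the moderated degrees of freedom. Nothing in the labels says whether pools of a group were made in separate rounds, so a p-value measures the spread between these pools. Counting does not limit abundant genes at this depth, and reads of amplified libraries without molecular identifiers are not independent molecules. Named genes had a mean CPM of at least 2 and the lowest p-values in each direction (10 genes for the pooled comparison, 5 per sex, 4 for the sex difference), the largest differences, or the smallest p of 33 gene lists, along with all opioid genes and the main markers. The members and lists were chosen with earlier results of these data known. Some genes that met these rules are not reported here. No other library of the series was used.

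Alternatives were DESeq2 1.42.0, voom of limma 3.58.1 with quality weights, RLE scaling, no filter, robust dispersion, a block for replicate number, covariates of D2 markers and of markers outside neurons, sva 3.50.0 with 2 surrogate variables, and each library left out. A fit without the 6 libraries that stood apart, a term for them and a covariate of reads outside exons were added after seeing the data. The fit was tested on simulated data. No 2 libraries of a group were copies of each other.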

Additional observations from a re-analysis of the deposited data

Results flagged for a closer look

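Single libraries that lay far from the other 5 of their group were looked for by Dixon's gap test in 276 groups of 6 values, over named genes, markers and library measures, and 34 were found, where chance alone gives about 1 in 20. Female water replicate 6 accounted for 8 of them. In it the 10 most abundant genes held 16.9% of reads against 8.83 to 10.8% in the rest of its group, and it was also far off for Trim66 (33.5 CPM), Acvr2b (29.2 CPM), Mtch2 (28.4 CPM, low), Ddx3x (279 CPM), Ttr (14.96 CPM), Tac1 (2129 CPM) and Rpl22 (54.6 CPM).

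Hnrnpu held 21.9 CPM in male fentanyl replicate 5 against 1.79 to 2.79 CPM in its group, and 30.7 CPM in female fentanyl replicate 4 against 1.73 to 8.41 CPM. Both are fentanyl libraries, and the estimate of Hnrnpu over both sexes rests on them. Rcor3 held 9.52 CPM in male fentanyl replicate 6 against 5.93 to 7.25 CPM in its group, still below every male water library.

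Female fentanyl replicate 5 held Y-linked reads above the other females, with Ddx3y at 3.39 CPM against 0.104 to 0.307 CPM and Eif2s3y at 1.16 CPM against 0 to 0.192 CPM, while males held 56.5 to 66.9 CPM of Ddx3y. Ddx3y was among the 27 genes with the female fentanyl range above the female water range. Where these Y-linked reads came from was not tested.

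Genes that were low in most libraries and high in a few gave further cases. Ttr, a transthyretin of the choroid plexus, reached 8.63 CPM in male fentanyl replicate 1, 49.8 CPM in male water replicate 4 and 5.04 CPM in female fentanyl replicate 2. Ms4a15 reached 16.7 CPM in male fentanyl replicate 5, 19.7 CPM in male water replicate 4 and 5.42 CPM in female fentanyl replicate 1, and Nmb, neuromedin B, 10.5 CPM in the first and 3.21 CPM in the last of these. Nanp, a phosphatase of sialic acid synthesis, was at 0.242 CPM in female fentanyl replicate 1 and at 44.4 to 60.2 CPM in the rest of that group.

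The remaining cases were smaller. In male fentanyl they were Styx at 4.49 CPM in replicate 5, Smpd2 at 11.4 CPM in replicate 4, Kdm6a at 21.1 CPM in replicate 3 and Ddx3x at 224 CPM in replicate 1. In male water they were Tpx2 at 4.60 CPM and Bahcc1 at 13.6 CPM in replicate 6, Smpd2 at 10.3 CPM and Rpl22 at 43.0 CPM in replicate 3, and Drd1 at 593 CPM in replicate 1. In the females they were Tmem199 at 83.4 CPM in fentanyl replicate 4, Rpl22 at 42.3 CPM in fentanyl replicate 5 and Sipa1l2 at 13.8 CPM, low, in water replicate 3.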

How the results depend on the processing

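Calls for fentanyl moved by few genes across 36 other settings, of which 24 left out 1 library each. Over both sexes DESeq2 gave 2 and every fit without 1 library 0. In males DESeq2 gave 4, voom 2, the replicate block 1 and fits without 1 library 0 to 1; in females the replicate block gave 1 and fits without 1 library 0 to 1; for the difference between the sexes DESeq2 gave 4, the replicate block 1 and fits without 1 library 0 to 1. Libraries with the same number did not deviate together over all genes (correlations -0.10 to 0.07), so these values give the block no backing. They cannot tell whether pools of the same number were handled together, which the labels do not say. The block called Rcor3 in males, and in females and between the sexes the Y-linked Ddx3y (log2 difference 4.62 and 4.58). Among the females Ddx3y was highest in fentanyl replicate 5, at 3.39 CPM. The gene gained without female water replicate 5 in females was Gm4017, and without male fentanyl replicate 6 for the difference between the sexes Ndufb4c. The 9 calls between females and males became 16 with DESeq2, 15 with D2 markers as a covariate, 27 with voom, 58 with surrogate variables, 27 with a term for the 6 libraries that stood apart, 15 without them and 8 to 14 without 1 library.

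Among 166 results of named genes, 44 values in the settings that keep or drop more than 1 library had the opposite sign, over 30 genes, and the unadjusted p of these values was at least 0.222. With reads outside exons as a covariate these were Pdyn -0.11, Isl1 -0.044, Adora2a -0.070, Rpl22 0.022, Sfxn1 0.0014, Gpr6 -0.011, Foxp1 0.0045, Ptpn5 -0.021, Bcl11b 0.037, Pvalb 0.011, Rgs5 0.066, Scn2b 0.017, Gabrb2 -0.011, Dync1i2 0.019, Stmn1 0.033, Tubb3 -0.022, Syn3 -0.034, Uqcrc2 -0.022, Sdhb -0.029, Cox6c 0.0051, mt-Nd1 0.057, mt-Nd2 0.013, Miat 0.069, Daglb -0.12, Msmo1 -0.010 and Scd1 0.050. With surrogate variables they were Pdyn -0.052, Isl1 -0.038, Bcl11b 0.0081, Sdhb -0.0040 and Daglb -0.037, and with D2 markers Tac1 0.0055, Drd2 -0.072, Adora2a -0.088 and Oprd1 -0.022. With non-neuronal markers they were Drd2 -0.040 and Adora2a -0.032, and with voom Drd2 -0.0072. Without the 6 libraries they included Isl1 -0.017, Drd2 -0.039, Adora2a -0.0085, Rgs5 0.016 and Scd1 0.00024. Without 1 library the ranges that crossed 0 were -0.065 to 0.15 for Adora2a, -0.020 to 0.090 for Daglb, -0.077 to 0.079 for Drd2, -0.017 to 0.11 for Oprd1, -0.025 to 0.10 for Pdyn and -0.052 to 0.0066 for Tac1. Of the list medians 3 moved beyond their spread: GABA interneuron to 0.083 with surrogate variables, ribosomal protein to 0.059 with reads outside exons and sex-linked to 1.18 with DESeq2. The cause of these shifts was not tested. Depth limits genes under 1 CPM, whose median 95% interval reached 0.548 log2 units to each side.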
